A study of Homo sapiens with 9 samples.

Results

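The genes described here are 34 genes of cholesterol synthesis and of the sterol-responsive programme of the SREBP transcription factors, taken by symbol from the 60591 rows of a table of messenger RNA counts. All 34 had a row, and 33 of them were among the 15944 genes that passed the expression filter and were tested (ABCG1 was not). The list was made by name and does not hold every enzyme of the pathway. The cells were undifferentiated Caco-2 (uCaco-2), proliferating cells of an established human colon adenocarcinoma line. They were kept for 24 h with 300 μM CoCl2, with 5 μM of the oxyquinoline derivative OD 4896-3212, or with neither, and 0.5% DMSO was present in all 3 conditions. Both agents are used as chemical inducers of hypoxia signaling, and no group was labelled as kept in low oxygen. Each was given at 1 dose and 1 time to 1 line, with 3 libraries per condition, so the treatments are set side by side at different doses.

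Cells build cholesterol from acetyl-CoA through mevalonate, farnesyl pyrophosphate, squalene and lanosterol, and several of the late steps consume molecular oxygen. When the endoplasmic reticulum is low in sterol, SCAP carries the SREBP precursors to the Golgi, where proteases release the active factors. INSIG proteins hold SCAP back when sterol is plentiful. In the intestine the pathway runs beside the uptake of sterol from the lumen by NPC1L1, and it shares SREBP control with the synthesis and desaturation of fatty acids.

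Total counts per library ranged from 15998136 to 24209427. The TMM composition factors were 0.770 to 0.795 for the CoCl2 libraries and 1.11 to 1.15 for the rest, so levels are given as CPM, counts per 1000000 after these factors. When libraries were scaled by their size alone, the median log2 fold change of all tested genes under CoCl2 moved from -0.049 to -0.55, and that of each member was lower by 0.51 against control and by 0.55 against OD. Directions that turn with this scaling are named where they are given. The 7 markers of Caco-2 epithelium summed to 9456 to 12607 CPM and the 11 markers of fibroblasts, leukocytes and endothelium to 23.8 to 31.0 CPM. Of the epithelial markers, VIL1, a microvillus protein, was at 613 ± 18.3 CPM (SD, n = 3) in control cells, 112 ± 6.28 under CoCl2 and 454 ± 8.08 under OD. VIL1 and KRT20 fell under CoCl2, at log2 fold changes of -2.45 and -1.44, while EPCAM, KRT8, CDH1, KRT18 and CDX2 had values of 0.18 to 0.36, smaller than the shift of 0.51 between the scalings. In such bulk samples, fewer cells of a type and less RNA per cell cannot be told apart.

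With OD, nearly the whole pathway was modestly higher, and under CoCl2 it split. In the quasi-likelihood fit of edgeR (p-values adjusted by Benjamini-Hochberg), 27 of the 33 tested members were higher under OD at an adjusted p under 0.05 (81.8%, against 32.3% of all tested genes) and 4 were lower (12.1%, against 33.3%). Most of these differences were small: with the further threshold of a log2 fold change above 1 in size, at which genes are called here, 4 members rose under OD (12.1%, against 9.09% of all genes) and 0 fell (against 4.16%). DESeq2 also called 0 lower, and 4 were lower by unadjusted p as well. The median log2 fold change of the members under OD was 0.54, against -0.010 for all tested genes. With CoCl2, 17 members were higher and 13 lower at an adjusted p under 0.05 (51.5% and 39.4%, against 40.4% and 42.8% of all genes). Of these, 8 rose and 6 fell at the called size (24.2% and 18.2%, against 19.9% and 23.4%), shares near those of all genes. With library size alone, 12 members were higher and 17 lower by adjusted p, for which all genes were not counted. The calls of IDI1 (0.87), NSDHL (0.70) and SREBF1 (0.84) were then lost. That leaves 5 members that rose and 9 that fell, beside 1833 and 5839 of the 15944 tested genes. The median under CoCl2 was 0.23, against -0.049 for all tested genes. It turned to -0.27 with library size alone, where that of all tested genes was -0.55. The libraries of treated and control cells did not overlap for 30 of the 33 members under CoCl2 and 31 under OD, against 83.4% and 68.0% of all tested genes.

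**Figure D1:**
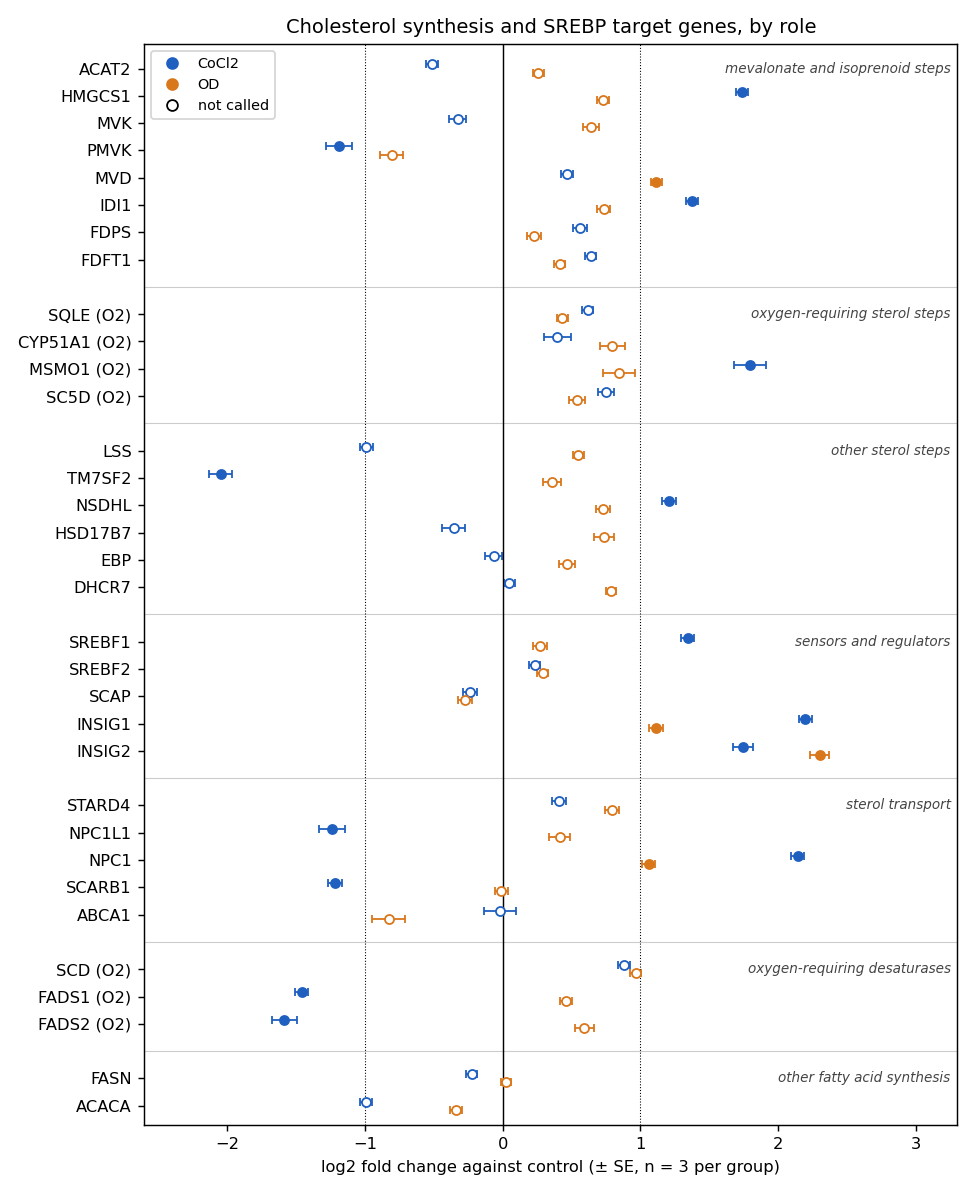
Log2 fold change against control for the 33 tested members, in order of their role, under CoCl2 in blue and OD in orange. Points are fitted values from 3 libraries per group, bars are standard errors, filled points are called genes, dotted lines mark a log2 fold change of 1 in either direction, and (O2) marks enzymes that use molecular oxygen. The orange points of cholesterol synthesis lie between 0.23 and 1.12 except for PMVK at -0.81, while the blue points spread from -2.05 to 1.80.

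The early enzymes turn acetyl-CoA into squalene. HMGCS1, which condenses acetoacetyl-CoA with acetyl-CoA to HMG-CoA, had 364, 378 and 352 CPM in the control libraries, 1297, 1224 and 1121 under CoCl2 and 593, 603 and 616 under OD. The 3 groups did not overlap, and the gene was highest under CoCl2. Its log2 fold change was 1.73 under CoCl2 (SE 0.043, adjusted p = 7.4e-44) and 0.73 under OD (SE 0.042, adjusted p = 1.45e-23). IDI1, which isomerises isopentenyl pyrophosphate, was at 171, 205 and 192 CPM in control cells, 504, 505 and 465 under CoCl2 and 308, 311 and 325 under OD. It followed the same order of groups, with log2 fold changes of 1.37 and 0.73.

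The other early enzymes did not all follow the order of HMGCS1 and IDI1. PMVK, phosphomevalonate kinase, had 20.8, 19.2 and 20.1 CPM in control cells, 7.90, 7.97 and 10.2 under CoCl2 and 12.1, 11.2 and 11.0 under OD. It was lowest under CoCl2, where it fell with a log2 fold change of -1.19, and it was the only one of the 18 cholesterol enzymes that was lower under OD, at -0.81 (adjusted p = 6.48e-13). MVD, which decarboxylates mevalonate pyrophosphate, had the largest rise among the enzymes under OD. Its CPM were 127, 118 and 123 in control cells, 171, 169 and 170.0 under CoCl2 and 274, 265 and 259 under OD. All OD libraries thus lay above all CoCl2 libraries, with log2 fold changes of 1.12 (adjusted p = 4.05e-33) under OD and 0.47 under CoCl2, the latter turning to -0.038 with library size alone. ACAT2, the thiolase that opens the pathway, and MVK, mevalonate kinase, were lower under CoCl2 at log2 fold changes of -0.51 and -0.33 and higher under OD at 0.26 and 0.64, each with an adjusted p under 0.05. FDPS and FDFT1, which make farnesyl pyrophosphate and squalene, were higher with both treatments, at 0.56 and 0.64 under CoCl2 and 0.23 and 0.41 under OD. With library size alone the CoCl2 values shrank to 0.054 and 0.13, and that of FDPS did not pass the test (adjusted p = 0.29). Of the exonic bases of HMGCS1 and IDI1, 37.7% and 14.97% are shared with genes on the opposite strand. For ACAT2 and FDPS these shares are 22.2% and 18.6%. The treatment of strand in the counting is not given, so the counts of HMGCS1, IDI1, ACAT2 and FDPS are uncertain.

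The oxygen-requiring sterol enzymes were the only role group of cholesterol synthesis in which every member was higher with both treatments at an adjusted p under 0.05, although CYP51A1 turned under CoCl2 when library size alone was used. Their median log2 fold change was 0.68 under CoCl2 and 0.67 under OD, beside -0.0083 and 0.59 for the other 14 enzymes of cholesterol synthesis. No test compared these 2 sets of genes. MSMO1, the methyl sterol oxidase that begins removal of the C4 methyl groups, had 60.7, 79.9 and 72.0 CPM in control cells, 254, 267 and 220.1 under CoCl2 and 118, 132 and 132 under OD. The groups stood apart, with control lowest and CoCl2 highest, although the control and CoCl2 libraries also varied among themselves. Its log2 fold change was 1.80 under CoCl2 (SE 0.116, adjusted p = 1.72e-06) and 0.84 under OD (SE 0.117, adjusted p = 0.000365), and it was the only one of the 4 that was called.

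SQLE, which epoxidises squalene, had 159, 167 and 168 CPM in control cells, 258, 259.9 and 240.4 under CoCl2 and 221, 217 and 229.6 under OD. SC5D, the sterol C5 desaturase, had 162, 203 and 184 CPM in control cells, 306, 327 and 292 under CoCl2 and 260.1, 269 and 269 under OD. In both genes every treated library lay above every control library, with log2 fold changes of 0.62 and 0.75 under CoCl2 and 0.43 and 0.54 under OD. With library size alone the CoCl2 values shrank to 0.11 and 0.25. CYP51A1, the lanosterol demethylase, was measured at only 8.50, 9.71 and 10.2 CPM in control cells, 11.9, 11.6 and 13.6 under CoCl2 and 16.1, 16.8 and 16.4 under OD. It was highest under OD, at a log2 fold change of 0.80, and its value of 0.40 under CoCl2 turned to -0.11 with library size alone. In the annotation, 68.2% of the exonic bases of CYP51A1 are shared with another gene on the same strand, so its counts are uncertain.

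Within cholesterol synthesis, the median log2 difference between CoCl2 and OD was largest in size, at -0.91, for the sterol steps that need no oxygen. For the early enzymes it was -0.078, with 4 higher under CoCl2 (up to 1.01) and 4 lower (down to -0.97). For the oxygen-requiring sterol steps it was 0.20, but with library size alone only MSMO1 (0.41) stayed positive. SQLE (-0.36) and SC5D (-0.33) then turned, and CYP51A1 was at -0.95. All 6 sterol steps that need no oxygen were higher under OD than in control cells at an adjusted p under 0.05, with log2 fold changes from 0.36 to 0.79. With CoCl2, NSDHL rose, TM7SF2 fell, and the median was -0.21. LSS, the cyclase that folds oxidosqualene into lanosterol, had 207, 205 and 207 CPM in control cells, 107, 96.0 and 108 under CoCl2 and 302, 301 and 302 under OD. It was lower than control under CoCl2 and higher under OD in every library. Its log2 fold change of -0.99 under CoCl2 (adjusted p = 4.32e-30) lay just short of the threshold and was called in 8 of 17 alternative analyses, while that under OD was 0.55. Within each library, where no scaling enters, the counts of SQLE were 0.770 to 0.817 of those of LSS in control cells, 2.22 to 2.71 times those of LSS under CoCl2 and 0.722 to 0.760 under OD (exact permutation test, two-sided p = 0.1 for each pair of groups, the smallest that 3 against 3 libraries allow).

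TM7SF2, a sterol C14 reductase, had the largest fall of the 33 members under CoCl2. It was at 31.3, 31.5 and 31.1 CPM in control cells, 6.72, 6.89 and 8.81 under CoCl2 and 40.1, 40.7 and 39.7 under OD. The CoCl2 libraries held less than any other library, at a log2 fold change of -2.05 (SE 0.086, adjusted p = 1.72e-31), against 0.36 under OD. NSDHL, which acts after MSMO1 in C4 demethylation, had 66.3, 59.9 and 62.0 CPM in control cells, 153, 143 and 139 under CoCl2 and 104, 103 and 105 under OD. It rose under CoCl2 at 1.21 and was higher under OD at 0.73. DHCR7, which makes cholesterol from 7-dehydrocholesterol, was at 435 ± 8.41 CPM in control cells, 450.0 ± 16.6 under CoCl2 and 750.3 ± 22.6 under OD (SD, n = 3). Its log2 fold change was 0.79 under OD, and under CoCl2 it was 0.049 with a 95% interval of -0.029 to 0.13, or -0.46 with library size alone. HSD17B7, the sterol 3-keto reductase, had values of -0.36 and 0.73 under CoCl2 and OD, and EBP, the sterol isomerase, -0.066 and 0.47. The value of EBP under CoCl2 did not pass the test (95% interval -0.19 to 0.055). For EBP, 36.4% of the exonic bases are shared with another gene on the same strand, and HSD17B7 has a near-identical pseudogene, HSD17B7P2, with 66 to 157 counts per library, so both are uncertain.

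The largest rise of any member under each agent was that of a regulator, and INSIG1 and INSIG2 were each highest under a different treatment. INSIG1 lies on chromosome 7 (GRCh38, chr7:155297776-155310235, plus strand) and is itself a classical SREBP target. Its CPM were 119, 124 and 111 in control cells, 586, 548 and 495 under CoCl2 and 251, 253 and 264 under OD. INSIG2 lies on chromosome 2 (chr2:118088452-118110997, plus strand), and its CPM were 12.2, 14.4 and 12.1 in control cells, 42.2, 45.6 and 42.3 under CoCl2 and 60.5, 66.0 and 64.4 under OD. INSIG1 was thus highest under CoCl2 and INSIG2 highest under OD, with no overlap between any of the groups in either gene. INSIG1 rose with log2 fold changes of 2.20 under CoCl2 (SE 0.048, adjusted p = 1.36e-39) and 1.11 under OD (SE 0.048, adjusted p = 4.55e-26). INSIG2 rose with 1.74 (SE 0.073, adjusted p = 1.06e-31) and 2.30 (SE 0.068, adjusted p = 9.9e-39), the largest change of any member under OD. In the direct comparison of CoCl2 under OD, INSIG1 was higher at 1.08 (adjusted p = 2.51e-27) and INSIG2 lower at -0.56 (adjusted p = 2.33e-13). Within single libraries, the ratio of INSIG1 to INSIG2 counts was 8.63 to 9.80 in control cells, 11.7 to 13.9 under CoCl2 and 3.84 to 4.15 under OD (exact permutation test, two-sided p = 0.1 for each pair of groups, the smallest possible). This ratio does not depend on the scaling of the libraries.

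**Figure D2:**
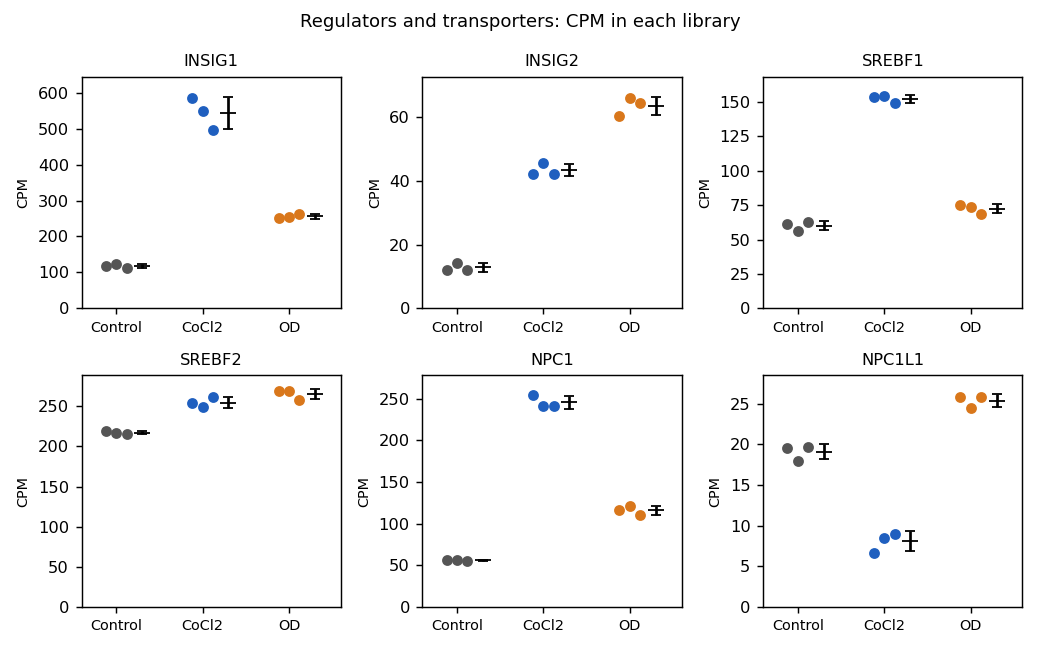
CPM (counts per 1000000 after TMM factors, linear axis from 0) of 6 regulators and sterol transporters in each of the 9 libraries, with the mean and SD of each group beside the points in black. INSIG1, SREBF1 and NPC1 are highest under CoCl2, INSIG2 is highest under OD at 60.5 to 66.0, and NPC1L1 is lowest under CoCl2 at 6.66 to 8.97.

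The promoter stretches of the INSIG genes and of SREBF2 are shown since these genes stand for the sterol sensors and their factor. The windows come from RefSeq (GRCh38.p14), from 250 bases before to 50 bases after each annotated start, and were found for 28 of the 34 members. Each stretch lies before the annotated start, on the plus strand, and capitals mark matches on either strand to TCACNCCAC (a sterol regulatory element), CCAAT (bound by NF-Y) and ACGTG or GCGTG (the core of the hypoxia response element). The SREBF2 stretch is chr22:41832955-41833019, that of INSIG1 is chr7:155297668-155297768 and that of INSIG2 is chr2:118088291-118088390.
SREBF2: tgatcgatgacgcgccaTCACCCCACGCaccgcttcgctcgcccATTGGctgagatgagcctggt
INSIG1: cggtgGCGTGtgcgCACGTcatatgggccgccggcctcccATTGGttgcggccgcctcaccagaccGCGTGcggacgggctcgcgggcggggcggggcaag
INSIG2: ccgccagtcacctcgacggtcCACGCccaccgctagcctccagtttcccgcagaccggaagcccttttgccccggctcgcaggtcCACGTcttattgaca
In SREBF2 the sterol element overlaps a match to GCGTG on the other strand. SREBF2 was the only one of the 28 members with a match to TCACNCCAC in its windows (3.57%, against 1.39% of 27305 genes with a window). CCAAT was found for 20 of the 28 (71.4%, against 39.7%), GCGTG for 23 (82.1%, against 40.6%), ACGTG for 9 (32.1%, against 24.9%) and CACGTG, an E-box that contains ACGTG, for 5 (17.9%, against 8.77%). Only exact matches to these patterns were counted, with N as any base, so other forms of a sterol element were not searched. These matches describe letters in short windows and were not compared with binding data.

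SREBF1 and SREBF2 encode the SREBP factors themselves, with SREBF1 more closely tied to fatty acid genes and SREBF2 to cholesterol genes. SREBF1 had 61.3, 56.4 and 62.5 CPM in control cells, 153, 154 and 149 under CoCl2 and 75.2, 73.5 and 68.9 under OD. It rose under CoCl2 at a log2 fold change of 1.34 (SE 0.050, adjusted p = 1.5e-34) and was slightly higher under OD at 0.27. SREBF2 had 219, 217 and 215 CPM in control cells, 254, 249 and 262 under CoCl2 and 269, 269.6 and 258 under OD. It was higher with both treatments by small amounts, 0.23 and 0.29, the former turning to -0.27 with library size alone, and the direct difference between the treatments did not pass the test (-0.058, 95% interval -0.14 to 0.020). SCAP was lower with both, at 84.0 ± 0.935 CPM in control cells, 71.0 ± 5.14 under CoCl2 and 69.4 ± 1.53 under OD (SD, n = 3), with log2 fold changes of -0.24 and -0.28.

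Among the genes that move sterol, those for lysosomal export and for uptake at the cell surface went apart under CoCl2. NPC1, which carries cholesterol out of lysosomes, had 56.2, 56.0 and 54.9 CPM in control cells, 255, 241 and 241 under CoCl2 and 116, 122 and 111 under OD. Every CoCl2 library lay above every OD library and these above every control library, with log2 fold changes of 2.14 (SE 0.047, adjusted p = 1.01e-46) and 1.06 (SE 0.048, adjusted p = 4.71e-29). NPC1L1, the sterol importer of the brush border and the target of ezetimibe, had 19.5, 18.0 and 19.7 CPM in control cells, 6.66, 8.51 and 8.97 under CoCl2 and 25.8, 24.5 and 25.8 under OD. It fell under CoCl2 at -1.24 (SE 0.095, adjusted p = 1e-18) and was higher under OD at 0.41 (adjusted p = 1.97e-06). VIL1, another brush-border gene, was also lower under CoCl2, at -2.45, but under OD it was lower, at -0.43, where NPC1L1 was higher. The part of such markers in this result was not tested.

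SCARB1, the HDL receptor, had 103, 98.7 and 105 CPM in control cells, 42.6, 44.3 and 45.2 under CoCl2 and 103, 104 and 97.7 under OD. Only the CoCl2 libraries stood apart, at -1.22 (SE 0.053, adjusted p = 6.19e-31), while the value under OD was -0.0088 (95% interval -0.101 to 0.083). STARD4, a cytosolic sterol carrier, was higher under OD at 0.80 and under CoCl2 at 0.41, the latter turning to -0.097 with library size alone. ABCA1, which exports cholesterol to apolipoproteins, had 12.1, 10.1 and 7.57 CPM in control cells, 9.52, 10.5 and 9.60 under CoCl2 and 6.13, 5.06 and 5.70 under OD. It was lower under OD at -0.83 (adjusted p = 2.73e-08), and under CoCl2 its value was -0.020 (95% interval -0.24 to 0.20). ABCG1, a partner in sterol export, had 1, 1 and 0 counts in control cells, 2, 3 and 3 under CoCl2 and 10, 6 and 4 under OD, and was too rare to be tested.

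The fatty acid desaturases use molecular oxygen as the sterol oxidases do, but they divided sharply under CoCl2. SCD, which puts a double bond into stearoyl-CoA, was the most abundant member per kilobase of exon in every condition, at 232 CPM per kilobase in control cells, 426 under CoCl2 and 452 under OD. Its CPM were 1241, 1233 and 1169 in control cells, 2359, 2159.8 and 2187 under CoCl2 and 2363, 2322 and 2424 under OD. The ranges of the treatments overlapped with each other and not with control, and the direct difference was -0.084 (adjusted p = 0.0466). The log2 fold changes were 0.88 under CoCl2 (adjusted p = 1.18e-29) and 0.96 under OD (adjusted p = 8.73e-31), both just short of the threshold. With library size alone they were 0.37 and 1.005, the latter called, and the direct difference was -0.63.

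FADS1 and FADS2, the delta-5 and delta-6 desaturases of polyunsaturated fatty acids, overlap on chromosome 11 and are read in opposite directions. FADS1 is at chr11:61799627-61829318 on the minus strand, within the span of FADS2 at chr11:61792980-61867354 on the plus strand. Of their exonic bases, 5.57% and 5.11% are shared with other genes on either strand, and each is the largest partner of the other. How the counting treated strand is not given. FADS1 had 196, 189 and 178 CPM in control cells, 67.0, 65.7 and 71.8 under CoCl2 and 255, 259 and 260.2 under OD. FADS2 had 27.9, 25.1 and 27.3 CPM in control cells, 7.03, 9.60 and 10.0 under CoCl2 and 41.7, 39.1 and 40.1 under OD. In both, all CoCl2 libraries lay below and all OD libraries above the control libraries. Both fell under CoCl2, at log2 fold changes of -1.46 (SE 0.047, adjusted p = 1.15e-37) and -1.58 (SE 0.090, adjusted p = 6.48e-25), and were higher under OD at 0.46 and 0.59. Within single libraries SCD had 6.32 to 6.58 times the counts of FADS1 in control cells, 30.4 to 35.2 times under CoCl2 and 8.98 to 9.31 times under OD (exact permutation test, two-sided p = 0.1 for each pair of groups, the smallest possible). The ratio of FADS1 to FADS2 counts was 6.51 to 7.54 in control cells, 6.85 to 9.53 under CoCl2 and 6.13 to 6.62 under OD, and both treated ranges overlapped that of control. FASN, fatty acid synthase, and ACACA, acetyl-CoA carboxylase, use no oxygen, and under CoCl2 they were lower at -0.22 and -0.99. With OD, ACACA was lower at -0.34, and FASN had a value of 0.024 (95% interval -0.052 to 0.101).

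**Figure D3:**
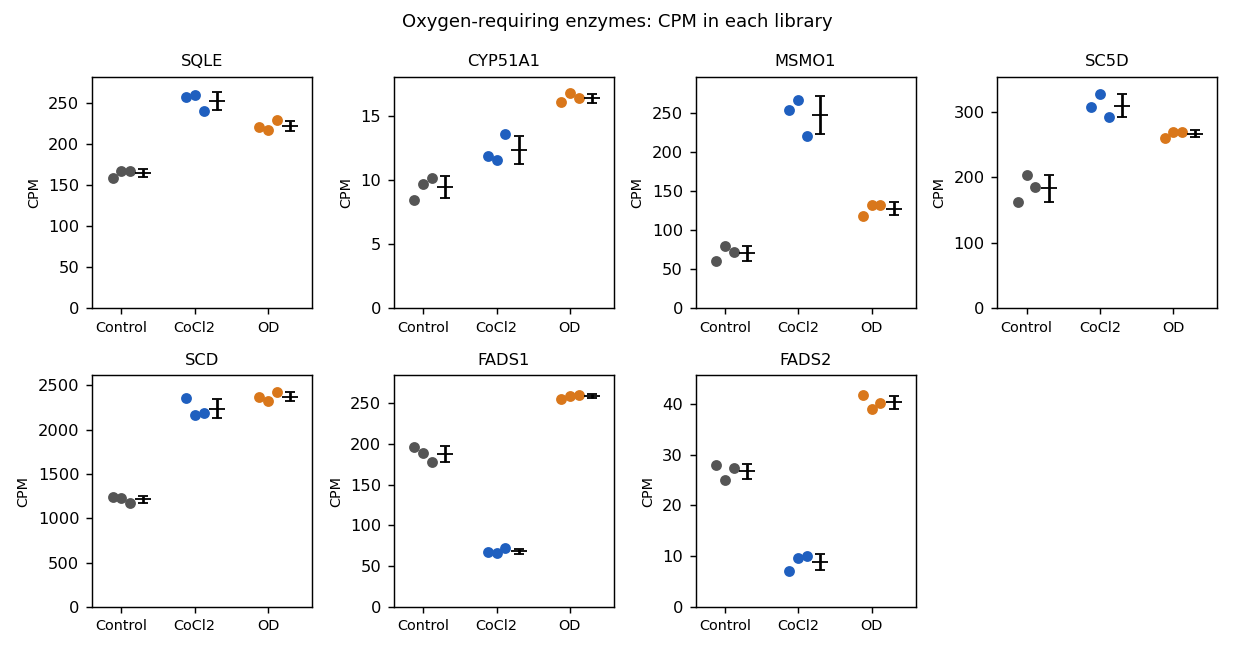
CPM (counts per 1000000 after TMM factors, linear axis from 0) of the 7 oxygen-requiring members in each of the 9 libraries, with the mean and SD of each group beside the points in black. Every treated library lies above the control libraries for SQLE, CYP51A1, MSMO1, SC5D and SCD, whereas FADS1 and FADS2 are lowest under CoCl2, at 65.7 to 71.8 and 7.03 to 10.0.

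For the 7 oxygen-requiring members together, the median was 0.62 on the log2 scale under CoCl2, where 5 were higher and 2 lower at an adjusted p under 0.05 (all genes 40.4% and 42.8%), and 0.59 under OD, where all 7 were higher (all genes 32.3%). The other 26 tested members had medians of 0.015 and 0.44. With library size alone the median of the oxygen-requiring members under CoCl2 was 0.11.

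CoCl2 and OD were also compared directly. At an adjusted p under 0.05, 12 of the 33 members were higher under CoCl2 than under OD (36.4%, against 40.2% of all tested genes) and 19 were lower (57.6%, against 43.2%). The libraries of the agents did not overlap for 30 members (90.9%, against 83.8%). Those called were 4 higher (12.1%, against 17.5%) and 7 lower (21.2%, against 23.8%). The higher ones were INSIG1, NPC1, SREBF1 and HMGCS1, with log2 differences of 1.08, 1.08, 1.07 and 1.01, all close to the threshold. With library size alone they were still positive, at 0.54, 0.53, 0.52 and 0.46, but 0 were called, and 5 members were higher by adjusted p. At that scaling 1351 of the 15944 tested genes were called higher under CoCl2 than under OD. HMGCS1 lost its call in 8 of the 17 alternative analyses. The lower ones were TM7SF2 at -2.41, FADS2 at -2.18, FADS1 at -1.92, NPC1L1 at -1.65, LSS at -1.54, SCARB1 at -1.21 and HSD17B7 at -1.09, and all 7 were called in each of the 17 alternatives. For SQLE, SC5D, FDPS, FDFT1 and NSDHL, which were higher under CoCl2 by 0.18 to 0.48, the sign turned with library size alone.

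**Figure D4:**
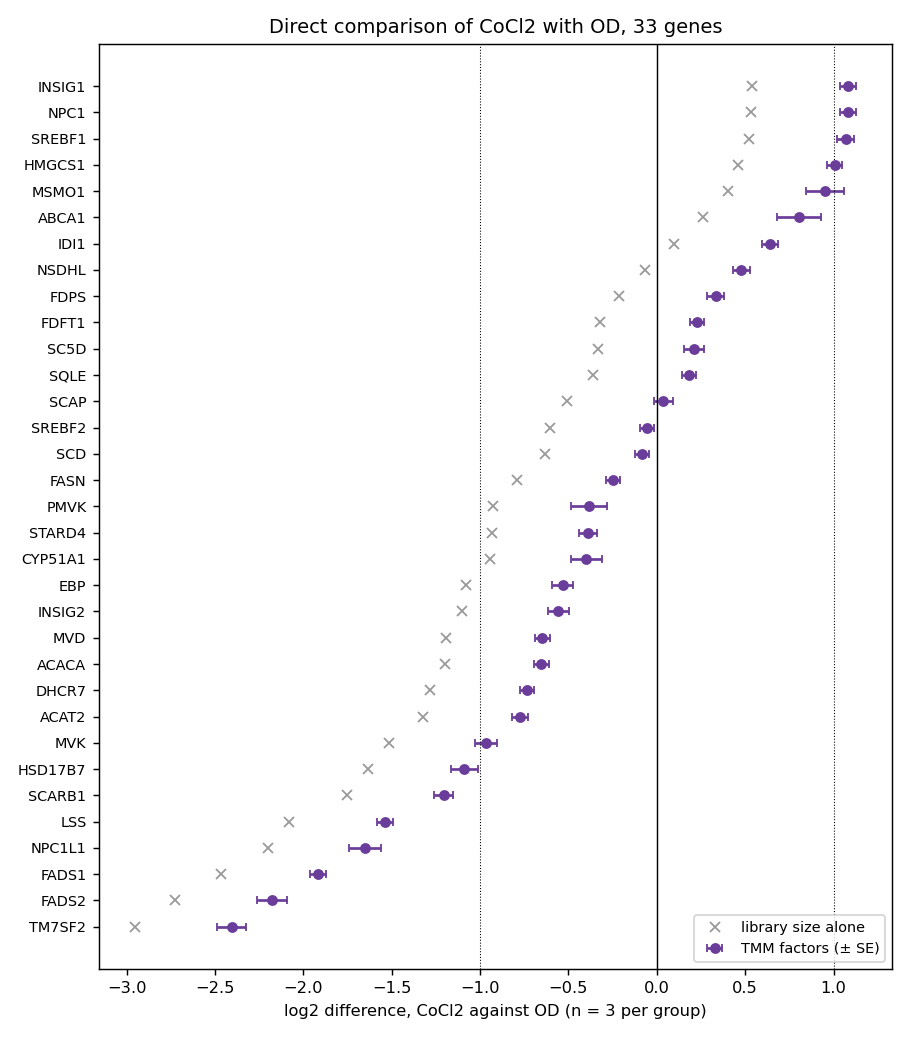
Log2 difference between CoCl2 and OD for the 33 tested members, sorted, with TMM factors (purple points with standard errors) and when scaled by library size alone (grey crosses). Dotted lines mark 1 in either direction, and n is 3 per group. Leaving out the composition factor moves each value down by 0.55, which puts the 4 highest genes below 1 and leaves the 7 lowest below -1.

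Other genes of the pathway were taken from lists made by role, 49 in all, of which 47 were tested. Under CoCl2, 7 rose and 9 fell (14.9% and 19.1%, against 19.9% and 23.4% of all genes). Under OD, 3 rose and 1 fell (6.38% and 2.13%, against 9.09% and 4.16%), so the called shares lay below those of all genes. At an adjusted p under 0.05 alone, 22 were higher and 23 lower under CoCl2 (46.8% and 48.9%, against 40.4% and 42.8%). By the same measure, 23 were higher and 14 lower under OD (48.9% and 29.8%, against 32.3% and 33.3%). The medians of the 47 genes were -0.10 under CoCl2 and 0.10 under OD. Of 11 genes that process SREBP or sense sterol, C12orf49 (SPRING1), which is needed to activate the site-1 protease, rose most under CoCl2, at 109 ± 6.46 CPM in control cells, 412 ± 16.2 under CoCl2 and 146 ± 3.87 under OD (SD, n = 3). MBTPS2, the site-2 protease that frees SREBP from the membrane, fell most, at 31.7 ± 1.25, 6.45 ± 1.07 and 18.9 ± 0.940 CPM. Their log2 fold changes under CoCl2 were 1.91 (adjusted p = 1.73e-45) and -2.32 (adjusted p = 9.73e-33), and none of the 11 genes was called under OD. At an adjusted p under 0.05 alone, 4 were higher and 4 lower under OD (36.4% each, near the 32.3% and 33.3% of all genes). Among 6 genes of sterol esters and lysosomes, the esterifying enzymes went apart under CoCl2, with SOAT1 at 1.15 and SOAT2 at -2.55, and LIPA, the lysosomal acid lipase, rose under OD at 1.32. Of 5 tested genes on the side of LXR, the oxysterol receptor, NR1H2 rose and NR1H3 fell under CoCl2, at 1.28 and -1.10. Both encode LXR forms. Of 8 genes of the isoprenoid branches, COQ2 of ubiquinone synthesis had the largest fall under CoCl2, at -2.20. Among 11 further genes of fatty acid synthesis, ACSL3 rose under CoCl2 at 1.95 and ELOVL6 fell at -1.72, while ACSS2, which makes acetyl-CoA from acetate, rose under OD at 1.36. Of 6 genes of the sterol scaffold and of electron supply to the oxygen-requiring steps, CYB5R3, the reductase of cytochrome b5, fell under CoCl2 at -1.10 and CYB5A, cytochrome b5 itself, fell under OD at -1.26.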

How the data were processed

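The data are raw counts of reads per gene, as deposited by the authors, for 9 libraries of uCaco-2 cells (stranded mRNA kit, single-end reads). Per the labels and the submitters' processing notes, reads were checked with FastQC 0.11.9, trimmed with cutadapt 2.10 and aligned with STAR 2.7.5b to GRCh38.p13 with GENCODE 34. The counting tool and its treatment of strand and of reads with several matches are not given in the sources used here, so counts are uncertain for genes with shared exons or close copies. The samples are described as biological replicates.

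The 34 members and all other gene lists were chosen with earlier results of these data known, so no adjusted p is given over a list alone and no list was tested as a set. Counts were tested with edgeR 4.0.16 (R 4.3.3, TMM factors, filterByExpr, robust quasi-likelihood fit on all 9 libraries), and p-values were adjusted over 15944 genes in each comparison by Benjamini-Hochberg. A gene was called, and is said to have risen or fallen, at an adjusted p under 0.05 with a log2 fold change above 1 in size. All members are named, and of each further list at most 2 genes per comparison, those with the largest change in each direction among the called. The standard error (SE) is the fold change divided by the root of its F statistic. The alternatives were DESeq2 1.42.0 on 9 or 6 libraries, edgeR on 6 libraries, scaling by RLE factors or by library size, testing without a count filter or with a minimum of 10 counts per library, a replicate block, each library left out and the adjusted p alone. On data simulated for CoCl2 against control, 200 of the 15944 genes were changed, as many up as down. At an adjusted p under 0.05 alone, edgeR recovered 187 of them with 10 false calls, testing 15486 genes. Changes so few and balanced do not test the scaling of the CoCl2 libraries. Replicates of a group differed by more than counting noise, with a chi-square of 1.82 to 3.32 per degree of freedom. Gene positions and exon lengths come from GENCODE 44 on GRCh38, and promoter windows from RefSeq.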

Additional observations from a re-analysis of the deposited data

How the results depend on the processing

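Most member results did not depend on the processing, and the main exception was the scaling of the CoCl2 libraries. With library size alone, 5 members rose under CoCl2 against control, beside 1833 of the 15944 tested genes. The medians were -0.27 (all members), 0.11 (oxygen-requiring members) and -0.55 (all tested genes). Signs turned for MVD (-0.038), CYP51A1 (-0.11), DHCR7 (-0.46), SREBF2 (-0.27) and STARD4 (-0.097). Against OD, 0 members were then called higher and 14 lower, beside 1351 and 6026 of the 15944 tested genes. The medians of the members were -0.93 and -0.63, against -0.60 for all tested genes. Signs turned for FDPS (-0.21), FDFT1 (-0.32), SQLE (-0.36), SC5D (-0.33), NSDHL (-0.067) and SCAP (-0.51). For OD against control the same scaling gave medians of 0.58 and 0.63. RLE factors gave a median of 0.28 for CoCl2 against control, no count filter gave 0.17 (0.55 for oxygen-requiring members), and at least 10 counts in every library gave 0.56 for OD against control. Adjusted p alone gave 17 higher and 13 lower under CoCl2, 27 and 4 under OD, and 12 and 19 for CoCl2 against OD.

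Values near 0 changed sign: DHCR7 under CoCl2 (-0.016 with no count filter), ABCA1 under CoCl2 (0.0019 with DESeq2 on 9 libraries, 0.030 with RLE factors), SCARB1 under OD (0.00226 with DESeq2 and 0.00816 with edgeR on 6 libraries, 0.032 with library size alone, 0.0159 with at least 10 counts in every library) and SCAP between CoCl2 and OD (-0.028 with no count filter, -0.0160 with at least 10 counts in every library). With 1 library left out, ABCA1 under CoCl2 ranged from -0.18 to 0.14, SCARB1 under OD from -0.037 to 0.022 and SCAP between the agents from -0.00172 to 0.096. Counts of members that rose and fell then ranged from 8 to 8 and 6 to 7 under CoCl2, 4 to 4 and 0 to 0 under OD, and 3 to 5 and 7 to 7 between them, with medians of 0.21 to 0.25, 0.53 to 0.55 and -0.40 to -0.30, and for oxygen-requiring members of 0.59 to 0.65, 0.57 to 0.64 and -0.12 to -0.055. The causes were not tested.

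Replicate numbers are shared by the groups but did not pair the libraries, since deviations of same-numbered libraries from their group means correlated at -0.0049 to 0.038 across genes (9 pairs) and those of other pairs at -0.047 to 0.025 (18 pairs). With the replicate block, 8 members rose and 6 fell under CoCl2 and 4 rose and 0 fell under OD, and 99 of 99 member results kept their direction and their side of the threshold.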

Other observations

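Between CoCl2 and OD, 5 of the 47 further pathway genes were called higher under CoCl2 and 11 lower (10.6% and 23.4%, against 17.5% and 23.8% of all tested genes). C12orf49 was higher at a log2 difference of 1.49, and so were MYLIP, which targets lipoprotein receptors for degradation, at 1.24, and LBR, a sterol reductase of the nuclear membrane, at 1.12. MBTPS2 was lower at -1.58, COQ2 at -1.68, NR1H3 at -1.67, SOAT2 at -2.24 and CYB5R3 at -1.28. ACACB, the mitochondrial acetyl-CoA carboxylase, had the largest fall, at -2.51. LBR and TM7SF2 encode enzymes for the same sterol C14 reduction, and their differences between the agents had opposite signs, 1.12 and -2.41.

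Per kilobase of exon, the order of the members differed between conditions below SCD, which led in each. After SCD came ACAT2, DHCR7 and HMGCS1 in control cells, at 72.1, 63.3 and 55.0 CPM per kilobase. Under CoCl2 HMGCS1, INSIG1 and IDI1 followed, at 183, 149 and 114, and under OD DHCR7 and HMGCS1, at 109 and 91.1.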
